A study of Mus musculus with 12 samples.

Results

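The miR-17-92 and miR-106b-25 clusters are a pair of related microRNA (miRNA) clusters, and their levels were read here from small RNA libraries of adult mouse liver. Members were chosen by name, as the main arm of each hairpin: miR-17-5p, miR-18a-5p, miR-19a-3p, miR-20a-5p, miR-19b-3p and miR-92a-3p for miR-17-92, and miR-106b-5p, miR-93-5p and miR-25-3p for miR-106b-25. All 9 had a row in the deposited table of 386 mature miRNA rows, 6 for the first cluster and 3 for the second. Values are CPM, reads scaled to a fixed total per library. The animals were wild-type C57BL/6 males at postnatal day 84 (12 weeks), born to C57BL/6J dams, and each of the 12 libraries was made from liver RNA. The 4 groups crossed the mother's diet with the son's own diet, with 3 libraries each: OO, in which mother and son ate the obesogenic diet, CO, in which the son alone did, OC, in which the mother alone did, and CC, in which both ate control chow. The obesogenic diet held 10% simple carbohydrate and 20% lipid and was given with sweetened condensed milk, and the control chow held 7% and 3%. Of 35 dams in the study, each stayed on its diet until litters of 6 pups, evened out on day 3, were weaned on day 21. Fasted sons were sampled, and the design asks what the mother's diet and the son's diet each do to liver miRNAs.

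A polycistronic miRNA cluster is transcribed as a single precursor RNA, and each hairpin is then cut out and trimmed to a mature strand that is loaded into an Argonaute protein, while the opposite (passenger) strand is mostly degraded. The mature strand pairs with messenger RNAs mainly through its seed, and miRNAs that share a seed share many targets. miR-17-92 is a MYC-driven cluster known for promoting proliferation and cell survival, required in mouse lung, heart and B cell development, and studied in liver for its role in tumours. miR-106b-25 lies in an intron of Mcm7, which encodes a subunit of the replicative DNA helicase, and through its shared seeds has many targets in common with miR-17-92.

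The mature sequences are shown because their seeds sort the 9 members into 4 families that cut across the clusters. They were taken 5′ to 3′ from the RefSeq table for GRCm38.p6, in which 9 of 9 names matched, and capitals mark the seed, bases 2 to 8.
miR-17-5p: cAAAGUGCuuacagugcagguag
miR-20a-5p: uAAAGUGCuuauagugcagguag
miR-106b-5p: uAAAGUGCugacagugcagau
miR-93-5p: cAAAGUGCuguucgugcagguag
miR-18a-5p: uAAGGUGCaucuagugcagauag
miR-19a-3p: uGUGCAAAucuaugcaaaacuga
miR-19b-3p: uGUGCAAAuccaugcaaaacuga
miR-92a-3p: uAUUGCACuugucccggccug
miR-25-3p: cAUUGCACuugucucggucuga

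The first 4 share the seed AAAGUGC, 2 from each cluster, and form the family known for repressing cell-cycle inhibitors and E2F factors. miR-18a-5p, a miRNA studied for damping TGF-beta signalling, has AAGGUGC and stands alone among the members. The miR-19 members, known as the main oncogenic part of the cluster in mouse lymphoma, share GUGCAAA. miR-92a-3p and miR-25-3p share AUUGCAC, the family known for repressing the cell-death gene Bcl2l11. Across the table's mature miRNAs these seeds were carried by 7, 2, 2 and 6 sequences in the order given, of which 4, 1, 2 and 4 had a row here.

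Several members differ by few bases, counted from 1 at the 5′ end. miR-19a-3p and miR-19b-3p differ by the single substitution U11C. miR-17-5p and miR-20a-5p differ by C1U and C12U, and miR-92a-3p and miR-25-3p by U1C, C14U and C18U over the 21 bases of the shorter one. The paralogous miR-106a-363 cluster on the X chromosome had 0 of 10 listed arms in the table and was not analysed here, yet its miR-106a-5p differs from miR-17-5p by U10A alone. The mature miR-19b-3p and miR-92a-3p are each also encoded by a second hairpin on the X chromosome (Mir19b-2, 52741983 to 52742066, and Mir92-2, 52741838 to 52741928, minus strand), outside any other annotated gene. How reads matching several miRNAs were counted is not given in the sources used here, so the split of reads between these near-identical members is uncertain. The rows summed to at least 1.00866e+06 CPM in each library, and whether reads counted in several rows enter this was not tested.

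In GENCODE vM21 on GRCm38, the 6 miR-17-92 hairpins lie on the plus strand of chromosome 14 between 115043671 and 115044506, a span of 836 bases, within an exon of Mir17hg, a long noncoding RNA gene (115042879 to 115046727). The 3 miR-106b-25 hairpins lie on the minus strand of chromosome 5 between 138165321 and 138165818, a span of 498 bases, in an intron of the protein-coding transcripts of Mcm7 (138164583 to 138172422). Those of miR-93 and miR-25 also fall in an exon of a noncoding Mcm7 transcript.

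Depth was taken from the step of which all values in a column are whole multiples. That this step is 1 read is an assumption here, since in 11 of 12 libraries no row stood for a single step, and every read count and counting interval given rests on it. On that footing depth ran from 5.45 mega-reads (M reads) in CO replicate 3 to 22.2 M reads in OC replicate 1. The hepatocyte miRNA miR-122-5p averaged 23414 CPM and lay between 19991 and 28851 CPM, so the defining miRNA of liver parenchyma was present in each library. CO replicate 3 stood apart: the median row lay 0.20 below its mean over the libraries on the log2 scale there, all 9 members lay below their own means, and 5 of them had their lowest value in it. Results that rest on it are therefore also given without it. The labels do not name mothers or litters, so p-values measure only the spread between these libraries. Title prefixes split fully with the mother's diet, so any batch behind them and maternal diet cannot be told apart. Titles of the control-fed sons, and that of OO replicate 2, end in the same letter, whose meaning is not stated, so a factor behind it cannot be fully told apart from the son's diet. OC replicate 2 and OO replicate 3 share a title stem of unstated meaning. In whole liver, fewer cells of a type and less RNA per cell cannot be told apart either.

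The 9 members spanned a 2109-fold range of mean level although 6 of them are encoded in 1 precursor. miR-92a-3p averaged 15267 ± 1002 CPM (SD, n = 12) and ranked 13 of 386 rows. miR-18a-5p, whose hairpin lies on the same transcript, had 7.24 ± 2.15 CPM and rank 287. Reads of miR-92a-3p and miR-19b-3p can also come from their second hairpins on the X chromosome, so their levels cannot be assigned to that transcript alone. Between miR-92a-3p and miR-18a-5p, mean levels ran in the order miR-25-3p (1399 ± 70.3 CPM), miR-93-5p (861 ± 87.3 CPM), miR-19b-3p (253 ± 32.5 CPM), miR-106b-5p (81.6 ± 15.8 CPM), miR-20a-5p (75.6 ± 8.63 CPM), miR-17-5p (72.4 ± 10.6 CPM) and miR-19a-3p (23.4 ± 4.62 CPM). The ranges of neighbours in this order over the 12 libraries did not overlap, with 2 exceptions: miR-106b-5p exceeded miR-20a-5p in 7 of 12 libraries, and miR-20a-5p exceeded miR-17-5p in 6 of 12. The members are 21 to 23 bases long, so length hardly enters these comparisons, but read shares depend on ligation and amplification as well and give no order of amounts in tissue.

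**Figure D1:**
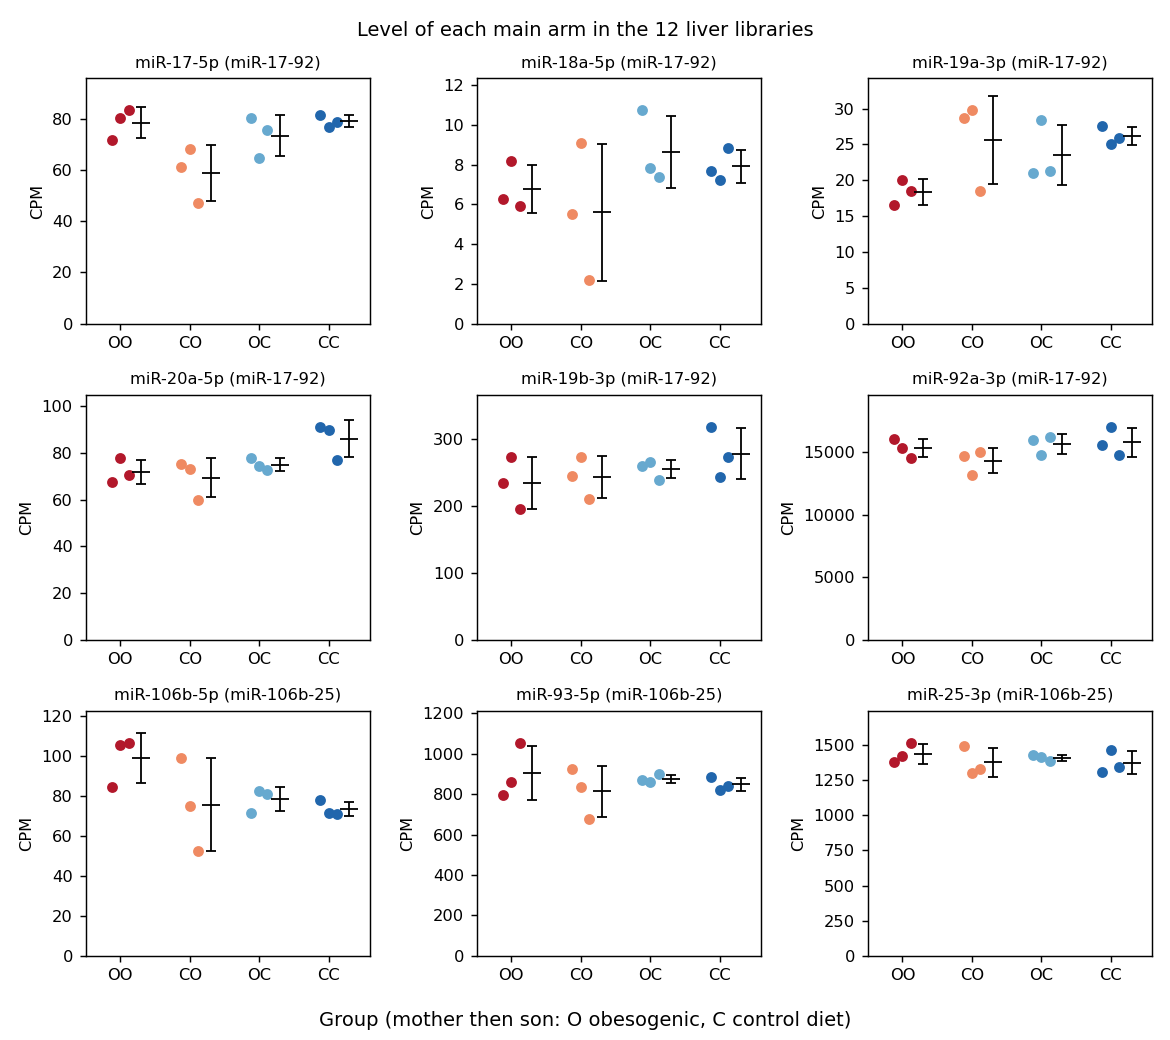
Level of each main arm in CPM (linear axes from 0) in the OO, CO, OC and CC groups: points are the 12 libraries, and the bars give mean and SD of 3 libraries. For miR-17-5p the 3 CO libraries and the OC library at 64.5 CPM are the 4 lowest, and miR-19a-3p lies at 20.0 CPM or below in all OO libraries.

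The AAAGUGC family was carried mainly by miR-93-5p, which made up 79.0 ± 1.25% of the family's summed CPM. miR-17-5p had 71.6, 80.3 and 83.2 CPM in OO livers, 61.2, 68.2 and 47.0 CPM in CO, 80.2, 64.5 and 75.4 CPM in OC, and 81.6, 76.8 and 78.5 CPM in CC. Its CO values lay below all OO and all CC values and overlapped those of OC, with the lowest in CO replicate 3. miR-20a-5p, its close relative on the same transcript, had 67.6, 77.7 and 70.5 CPM in OO, 75.1, 73.0 and 59.8 CPM in CO, 78.0, 74.4 and 72.6 CPM in OC, and 91.3, 89.9 and 76.9 CPM in CC. Here the CC libraries were high, above all CO libraries but not above all OO libraries.

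From the second cluster, miR-106b-5p had 84.6, 105.6 and 107 CPM in OO, 99.0, 75.04 and 52.5 CPM in CO, 71.7, 82.5 and 81.2 CPM in OC, and 77.7, 71.5 and 71.2 CPM in CC. All OO libraries exceeded all OC and CC libraries, while CO overlapped every group. miR-93-5p had 796, 862 and 1055 CPM in OO, 925, 836 and 679 CPM in CO, 872, 861 and 899 CPM in OC, and 884, 822 and 841 CPM in CC. Both obesogenic-fed groups spread around the narrow ranges of the control-fed groups. The seed family as a whole summed to 1153 ± 150 CPM in OO, 1017 ± 164 CPM in CO, 1104 ± 22.8 CPM in OC and 1087 ± 40.8 CPM in CC (SD, n = 3 each), differences smaller than the spread between replicates of the obesogenic-fed groups.

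miR-18a-5p, the member lowest in level, had 6.27, 8.17 and 5.92 CPM in OO, 5.50, 9.09 and 2.20 CPM in CO, 10.7, 7.85 and 7.39 CPM in OC, and 7.67, 7.23 and 8.84 CPM in CC. Its lowest value, in CO replicate 3, rested on 12 reads, with an exact Poisson 95% interval of 1.14 to 3.85 CPM that covers counting error only. The next lowest library of the other 11 stood at 5.50 CPM, so that library alone set the lower end of the range.

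Within the GUGCAAA family, miR-19b-3p, which can also come from a second hairpin, exceeded miR-19a-3p 10.8-fold on average although they differ by 1 base. miR-19a-3p had 16.5, 20.0 and 18.5 CPM in OO, 28.6, 29.7 and 18.5 CPM in CO, 21.0, 28.4 and 21.2 CPM in OC, and 27.5, 25.03 and 25.9 CPM in CC. The OO libraries lay below all OC and CC libraries, and CO replicate 3 lay among them. miR-19b-3p had 235, 273 and 195 CPM in OO, 246, 274 and 211 CPM in CO, 261, 266 and 239.5 CPM in OC, and 319, 243 and 273 CPM in CC. All 4 groups overlapped for it.

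The AUUGCAC family held most of the reads of both clusters. miR-92a-3p had 16022, 15372 and 14555 CPM in OO, 14721, 13166 and 15045 CPM in CO, 16013, 14771 and 16183 CPM in OC, and 15567, 17051 and 14742 CPM in CC. miR-25-3p had 1376, 1420.3 and 1516 CPM in OO, 1494, 1301 and 1332 CPM in CO, 1426, 1415 and 1386 CPM in OC, and 1311, 1467 and 1345 CPM in CC. The groups overlapped for both, and their spread was small: the coefficient of variation over the 12 libraries was 6.56% for miR-92a-3p and 5.03% for miR-25-3p, against a median of 19.6% over all rows. Only 5 rows varied less than miR-92a-3p and 1 less than miR-25-3p. Both these counts and the median take in low and high rows alike, and counting error weighs least on high rows. Alone it would give a coefficient of 0.238% for miR-92a-3p and 0.787% for miR-25-3p. Whether these members varied less than other rows of like level was not tested. Of the other members, miR-93-5p (10.1%), miR-20a-5p (11.4%), miR-19b-3p (12.8%), miR-17-5p (14.7%) and miR-106b-5p (19.3%) also lay below that median. miR-19a-3p (19.8%) lay just above it. miR-18a-5p (29.7%) lay above it, but at 19.7% without CO replicate 3. Counting error alone would give miR-18a-5p a coefficient of 12.9%, which is not an additive part of the 29.7%.

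For the sons' own diet, averaged over both maternal diets with 6 libraries against 6, no member passed the test. By limma on log2(CPM + 1) over all rows with Benjamini-Hochberg adjustment, 0 of 9 members had an adjusted p under 0.05, where 0.777% of all rows did, and 0 had an unadjusted p under 0.05, where 14.8% of rows did. All 6 miR-17-92 members were lower in obesogenic-fed sons, with log2 changes of -0.44 (miR-18a-5p) to -0.09 (miR-92a-3p), and those of miR-106b-25 were -0.02 (miR-93-5p), 0.01 (miR-25-3p) and 0.16 (miR-106b-5p). The miR-17-92 members stayed lower under both other scalings and with each library left out, whereas miR-93-5p turned to 0.00127 with median-of-ratios factors. Since the 6 are encoded in 1 transcript and were read from the same libraries, they are not 6 independent results. The median was -0.16 over the members and -0.02 over all rows. miR-20a-5p averaged 70.6 ± 6.34 CPM in obesogenic-fed sons, against 80.5 ± 8.05 CPM in the control-fed (SD, n = 6 each), a log2 change of -0.19 (SE 0.09, limma adjusted p = 0.375, the smallest among the members). Without CO replicate 3 the own-diet log2 change was -0.22 for miR-18a-5p, -0.09 for both miR-17-5p and miR-19a-3p, and 0.28 for miR-106b-5p, which was 0.05 without CO replicate 1.

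The intervals say how large a difference could have gone unseen. On the log2(CPM + 1) scale, the 95% interval of the own-diet change excluded a change of 1 in either direction for 9 of 9 members. It excluded a change of 0.5 for 8 of 9, all but miR-18a-5p. For miR-18a-5p the interval was -0.96 to 0.07, and this scale understates changes at its low CPM. A log2 change of 1 in its CPM is therefore not excluded, and its estimate of -0.44 was -0.51 with a pseudocount of 0.25. The interval was narrowest for miR-92a-3p, at -0.22 to 0.05, where 14813 ± 961 CPM in obesogenic-fed sons stood against 15721 ± 889 CPM in control-fed sons. For miR-25-3p it was -0.13 to 0.16. Summed over the 6 miR-17-92 members, the level was 15219.7 ± 948 CPM in obesogenic-fed sons, against 16178 ± 880 CPM in the control-fed (SD, n = 6 each). That difference, -958 CPM, was -675 CPM with median-of-ratios factors and -302 CPM with TMM factors. Over the 3 of miR-106b-25 it was 2352 ± 222.5 CPM in obesogenic-fed sons, against 2330.5 ± 51.4 CPM in the control-fed.

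**Figure D2:**
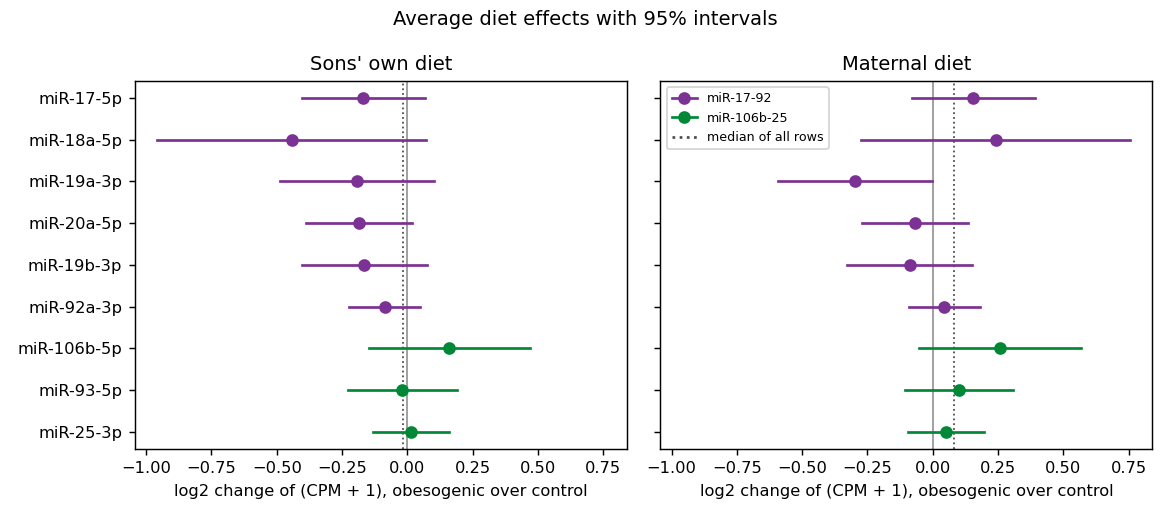
Log2 change of (CPM + 1), obesogenic over control, of each member for the sons' own diet (left) and for maternal diet (right), each averaged over the other diet: points are limma estimates, lines 95% intervals, the dotted line the median of all 386 rows. The own-diet interval contains 0 for each member, and the miR-17-92 members all lie left of 0. In the right panel miR-19a-3p has an interval that ends just below 0.

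Within the sons of control mothers, CO against CC, 2 of 9 members did not overlap between the groups, both lower in CO. That share was like the 22.0% of all rows that did not overlap. miR-17-5p averaged 58.8 ± 10.8 CPM in CO and 79.0 ± 2.40 CPM in CC (SD, n = 3 each), a log2 change of -0.43 (SE 0.15, limma adjusted p = 0.211). miR-20a-5p averaged 69.3 ± 8.27 CPM in CO and 86.0 ± 7.92 CPM in CC, a log2 change of -0.31 (SE 0.13, limma adjusted p = 0.255). Neither passed over all rows, where 0.777% did, but both had an unadjusted p under 0.05, which 16.3% of rows had. Both rest in part on CO replicate 3: without it the log2 change was -0.28 for miR-17-5p and -0.21 for miR-20a-5p, and with TMM factors -0.31 and -0.18. The other members had log2 changes of -0.58 (miR-18a-5p) to 0.00 (miR-25-3p).

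Other measures moved beside miR-17-5p in these libraries. The endothelial list held miR-126 arms alone (miR-126a-3p, miR-126a-5p and miR-126b-5p), so its markers are not independent of each other. Of these, 2 of 3 had a row and none was at 0 in any library. Their rows summed to 15584 to 22984 CPM in CO, against 24304 to 27100.2 CPM in CC. The hepatocyte list (miR-122-5p, miR-192-5p, miR-194-5p and miR-148a-3p), with 4 of 4 rows, summed to 364288 to 404885 CPM in CO and 350197 to 357084 CPM in CC. Over the 12 libraries this sum averaged 360381 CPM, of which miR-122-5p gave 23414 CPM, so it mostly reflects the other rows of the list. The leukocyte list, with 7 of 7 rows, summed to 2380.5 to 3087 CPM in CO and 2870.3 to 3562 CPM in CC. The erythroid list, with 4 of 5 rows, summed to 4252 to 8999 CPM in CO and 2862 to 4255 CPM in CC. The mesenchymal, epithelial and muscle sums also overlapped between CO and CC. Over the 12 libraries miR-17-5p had a Pearson r of 0.91 with the endothelial sum, 0.70 with the leukocyte sum, -0.87 with the hepatocyte sum and -0.58 with the erythroid sum. Without CO replicate 3 these were 0.73, 0.46, -0.62 and -0.73. The pattern was not particular to miR-17-5p: in the same order miR-18a-5p had 0.82, 0.75, -0.88 and -0.49, and 0.27, 0.60, -0.61 and -0.67 without that library. By contrast miR-19a-3p had 0.06, -0.03, -0.17 and 0.36, and -0.50, -0.31, 0.18 and 0.455 without it. These are descriptions picked from 36 pairings of members and marker lists after their values were seen, and all share each library's scaling. The part of these cell types in the values of miR-17-5p was not tested.

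Within the sons of obesogenic mothers, OO against OC, 2 of 9 members did not overlap, where 15.5% of rows did not, and 0 passed, where 0.518% of rows did. None had an unadjusted p under 0.05, where 7.25% of rows did. miR-106b-5p averaged 98.9 ± 12.5 CPM in OO and 78.4 ± 5.91 CPM in OC, a log2 change of 0.33 (SE 0.20, limma adjusted p = 0.851). miR-19a-3p averaged 18.3 ± 1.78 CPM in OO and 23.5 ± 4.196 CPM in OC, a log2 change of -0.33 (SE 0.19, limma adjusted p = 0.794). The other members ranged from -0.31 (miR-18a-5p) to 0.10 (miR-17-5p). Whether the own-diet difference depends on the mother's diet was tested by the interaction, in which 0 of 9 members and 0.0% of rows passed. It was 0.53 for miR-17-5p (SE 0.21, limma adjusted p = 0.773), the 1 member with an unadjusted p under 0.05, where 3.89% of rows had one, and 0.38 without CO replicate 3. The median interaction of all rows was 0.13, and 0.01 with median-of-ratios factors, and relative to it that of miR-17-5p was 0.40.

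For maternal diet, averaged over the sons' diets, 0 of 9 members and 0.0% of rows passed, and 0 members separated fully, where 0.777% of rows did. The members' log2 changes ran from -0.30 to 0.26, 6 higher and 3 lower with obesogenic mothers, with a median of 0.05 beside 0.08 over all rows. Of the 6, miR-92a-3p and miR-25-3p turned lower under both other scalings. miR-19a-3p was the 1 member with an unadjusted p under 0.05, where 6.99% of rows had one: it averaged 20.9 ± 4.05 CPM in sons of obesogenic mothers, against 25.9 ± 3.99 CPM in those of control mothers (SD, n = 6 each), a log2 change of -0.30 (SE 0.13, limma adjusted p = 0.579), with overlapping values. At the other end miR-106b-5p averaged 88.7 ± 14.2 CPM in sons of obesogenic mothers and 74.5 ± 14.9 CPM in those of control mothers, a log2 change of 0.26 (SE 0.14, limma adjusted p = 0.600), and 0.14 without CO replicate 3. Depth moved with maternal diet, at 10.5 to 22.2 M reads in sons of obesogenic mothers and 5.45 to 14.97 M reads in those of control mothers. With depth as a covariate the log2 change was -0.50 for miR-19a-3p and 0.06 for miR-106b-5p. On the log2(CPM + 1) scale, the 95% interval at the deposited scaling excluded a change of 1 for 9 of 9 members. It excluded a change of 0.5 for 6 of 9.

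In control-fed sons, OC against CC, 0 of 9 members failed to overlap, where 8.81% of rows did, 0 passed (0.0% of rows), 0 had an unadjusted p under 0.05 (1.04% of rows), and log2 changes lay between -0.19 (miR-20a-5p) and 0.10 (miR-18a-5p). In obesogenic-fed sons, OO against CO, the median row was higher by 0.13, a shift that became 0.02 with median-of-ratios factors, so changes are also given relative to it. miR-17-5p was 0.42 higher in OO on the log2 scale (SE 0.15, limma adjusted p = 0.307), at 78.4 ± 6.04 CPM in OO against 58.8 ± 10.8 CPM in CO, and 0.29 higher relative to the median row. It was the 1 member whose libraries did not overlap, where 19.2% of rows did not, and its log2 change was 0.27 without CO replicate 3 and 0.27 with TMM factors. miR-19a-3p was lower in OO, at 18.3 ± 1.78 CPM against 25.6 ± 6.17 CPM in CO, a log2 change of -0.44 (SE 0.19, limma adjusted p = 0.371) and -0.57 relative to the median row. Its OO values overlapped those of CO through CO replicate 3, and without that library the log2 change was -0.65. In this comparison 0 of 9 members and 0.0% of rows passed, and these 2 members had an unadjusted p under 0.05, where 12.2% of rows had one. It shares the CO libraries with CO against CC, so the miR-17-5p values of both comparisons rest on the same 3 low libraries. The endothelial and hepatocyte sums lay at 24420.2 to 28052 CPM and 354009 to 366026 CPM in OO, beside the CO ranges given before.

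With both diets obesogenic, OO against CC, miR-19a-3p and miR-106b-5p lay apart in opposite directions. miR-19a-3p averaged 18.3 ± 1.78 CPM in OO and 26.1 ± 1.26 CPM in CC, a log2 change of -0.49 (SE 0.19, limma adjusted p = 0.308). miR-106b-5p averaged 98.9 ± 12.5 CPM in OO and 73.5 ± 3.70 CPM in CC, a log2 change of 0.42 (SE 0.20, limma adjusted p = 0.413). The libraries of these 2 of 9 members did not overlap, a share like the 22.0% of all rows that did not. Neither passed, where 0.259% of rows did. miR-19a-3p was the 1 member with an unadjusted p under 0.05, where 12.2% of rows had one. miR-17-5p, at 78.4 ± 6.04 CPM in OO and 79.0 ± 2.40 CPM in CC, had a log2 change of -0.01 with a 95% interval of -0.35 to 0.32.

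The leading member of each cluster was the same in all libraries. miR-92a-3p held 97.2 ± 0.348% of the summed CPM of miR-17-92 (SD, n = 12), a share so near the whole that it says little of the others, whose shares varied more: that of miR-19a-3p ran from 0.100% to 0.218%, with means of 0.117% in OO and 0.161% in CC, and that of miR-18a-5p from 0.0143% to 0.0667%, lowest in CO replicate 3. Of the remainder, miR-19b-3p held 58.6 ± 2.68%, miR-20a-5p 17.5 ± 1.13%, miR-17-5p 16.8 ± 2.28%, miR-19a-3p 5.42 ± 0.864% and miR-18a-5p 1.65 ± 0.419%. Within miR-106b-25, miR-25-3p held 59.8 ± 2.07%, miR-93-5p 36.7 ± 1.80% and miR-106b-5p 3.47 ± 0.507%, the last from 2.55% in CO replicate 3 to 4.42% in OO replicate 2. The mean sum was 15699 CPM for miR-17-92 and 2341 CPM for miR-106b-25, or 1.55% and 0.232% of the CPM summed over all rows.

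The opposite strands of the same hairpins were compared with the main arms. Of 9 listed passenger arms 6 had a row, and each was lower on average than its main arm. The ratio of mean levels was 514 for miR-92a-3p over miR-92a-1-5p, 395 for miR-25-3p over miR-25-5p and 136 for miR-93-5p over miR-93-3p. It was only 6.57 for miR-17-5p over miR-17-3p, 2.88 for miR-18a-5p over miR-18a-3p and 1.74 for miR-106b-5p over miR-106b-3p. Both arms of miR-106b thus stood at like levels, and the main arm exceeded the other in every library, with the lowest ratio (1.14) in CO replicate 3 and the highest (2.46) in OO replicate 2. For miR-18a the order turned in CO replicate 3, at a ratio of 0.667, where its counts were lowest. Since miR-92a-3p can come from a second hairpin and miR-92a-1-5p cannot, that ratio mixes 2 loci.

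**Figure D3:**
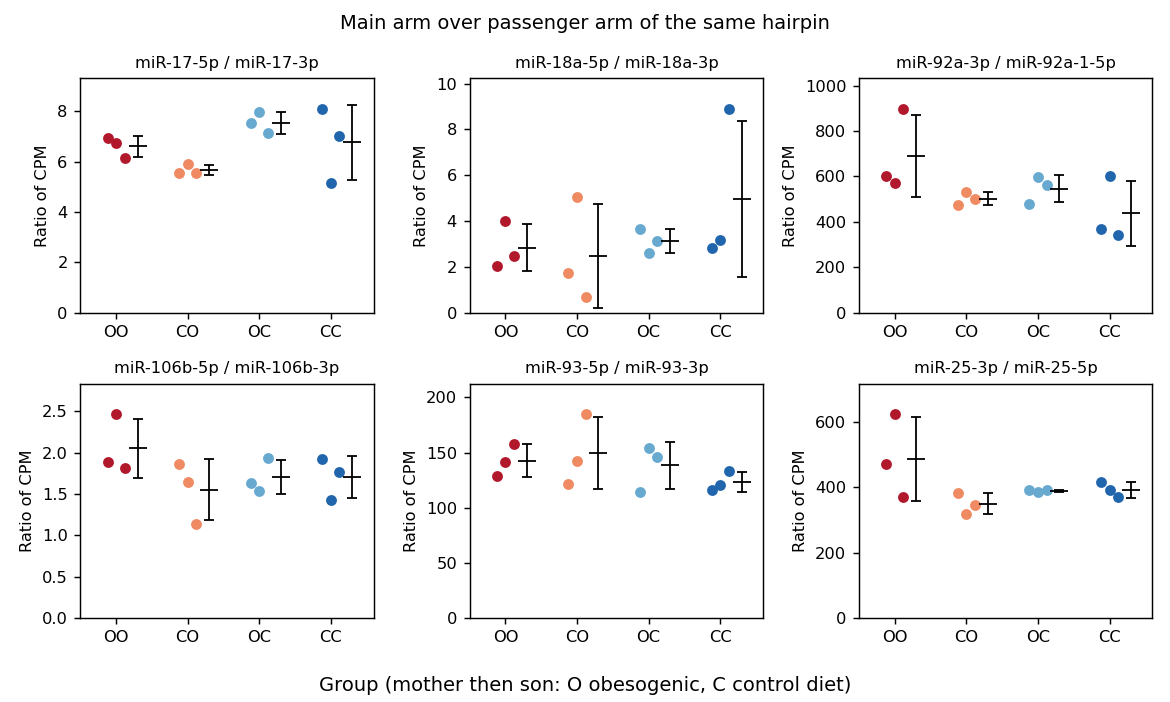
CPM of the main arm divided by that of the passenger arm of the same hairpin (linear axes from 0) in the OO, CO, OC and CC groups: points are libraries, bars mean and SD of 3. Ratios differ more between hairpins, from about 1.74 for miR-106b to 514 for miR-92a as ratios of mean levels, than between groups.

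None of the 6 passenger arms passed in any comparison; in OO against CC, 0.259% of rows did. miR-92a-1-5p had 26.7, 26.8 and 16.2 CPM in OO, 31.2, 24.8 and 30.1 CPM in CO, 33.4, 24.8 and 28.8 CPM in OC, and 42.4, 28.4 and 43.0 CPM in CC. All OO libraries lay below all CC libraries, where 22.0% of rows did not overlap in either direction, with a log2 change of -0.69 (SE 0.23, limma adjusted p = 0.275), and -0.46 without OO replicate 3. In the same comparison its main arm miR-92a-3p had a log2 change of -0.04 (95% interval -0.23 to 0.15). The ratio of main to passenger arm averaged 690 ± 180 in OO and 437 ± 142.5 in CC (SD, n = 3 each), with overlapping values.

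Outside the clusters, 2 of 3 listed miRNAs with the AUUGCAC seed had a row, miR-92b-3p and miR-32-5p, and neither passed. miR-92b-3p, which differs from miR-92a-3p by U10C and G21C over the shared bases, had 41.2, 37.6 and 37.8 CPM in OO, 39.2, 42.6 and 40.4 CPM in CO, 31.2, 35.01 and 33.0 CPM in OC, and 27.8, 37.1 and 25.3 CPM in CC. All 6 obesogenic-fed libraries exceeded all 6 control-fed ones, which held for 2.59% of rows in either direction. The log2 change was 0.34 (SE 0.10, limma adjusted p = 0.174), on the other side of 0 from that of miR-92a-3p, though the difference between them was not tested. The hepatocyte sum lay higher on average in obesogenic-fed sons, at 354009 to 404885 CPM against 334574 to 357084 CPM in the control-fed, with overlapping values. Its part in the values of miR-92b-3p was not tested. miR-92b-3p averaged 39.8 ± 1.98 CPM in obesogenic-fed sons, against 31.6 ± 4.42 CPM in the control-fed (SD, n = 6 each), a small level beside that of miR-92a-3p. miR-32-5p averaged 43.2 ± 11.5 CPM in obesogenic-fed sons, against 41.2 ± 1.47 CPM in the control-fed (log2 change 0.02, limma adjusted p = 0.961).

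Across the 12 libraries the 3 pairs of miR-106b-25 members had positive correlations, with and without CO replicate 3. Pearson's r of log2(CPM + 1) was 0.80 for miR-106b-5p with miR-93-5p, 0.60 for miR-106b-5p with miR-25-3p and 0.59 for miR-93-5p with miR-25-3p, and 0.62, 0.56 and 0.56 without CO replicate 3. All 3 members had their highest value in OO replicate 3, at 107, 1055 and 1516 CPM for miR-106b-5p, miR-93-5p and miR-25-3p. Their r without that library was not computed, so how far it rests on OO replicate 3 is not known. For the 15 pairs within miR-17-92 the median r was 0.38 (0.30 without that library), from -0.39 for miR-19a-3p with miR-92a-3p to 0.79 for miR-17-5p with miR-18a-5p, which was 0.30 without it. The 5 pairs with miR-92a-3p had a median of 0.02 and the other 10 a median of 0.63, beside the 0.60 of miR-106b-25, but without CO replicate 3 these 10 had a median of 0.31, against 0.56 for miR-106b-25. This split was made after the values were seen. For the 18 pairs across the clusters the median was 0.13, and -0.27 without CO replicate 3. The median over all pairs of rows was 0.11, and 0.06 without it. These correlations are descriptions: the points share each library's scaling, diet groups are pooled, and they carry no test.

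**Figure D4:**
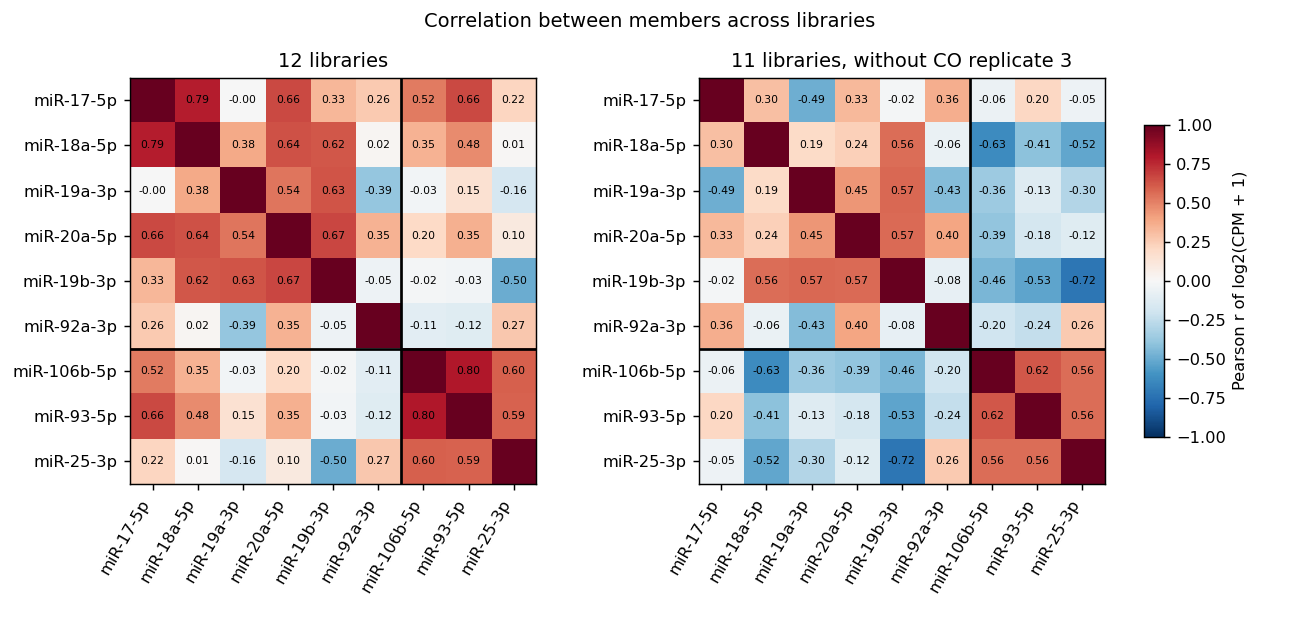
Pearson's r of log2(CPM + 1) between members over 12 libraries (left) and over the 11 without CO replicate 3 (right), with black lines between miR-17-92 (upper left block) and miR-106b-25 (lower right block). The lower right block stays at 0.56 or above in both panels, whereas the blocks across clusters have a median of 0.13 on the left and -0.27 on the right. Both panels include OO replicate 3, in which all miR-106b-25 members were highest.

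Among the 377 rows outside the members, those most alike in pattern to the summed miR-106b-25 level were miR-151-3p (r = 0.85), miR-421-3p (0.85) and miR-32-5p (0.83). Those most alike to the miR-17-92 sum, which is nearly all miR-92a-3p, were miR-125a-5p (0.72), miR-204-5p (0.69) and miR-99b-5p (0.69). With miR-92a-3p left out of that sum they were let-7f-2-3p (0.93), miR-338-3p (0.91) and miR-101a-5p (0.84). Without CO replicate 3 the r values for the miR-106b-25 sum were 0.80, 0.86 and 0.72 in the order given. Those for the miR-17-92 sum were 0.74, 0.69 and 0.69, and those with miR-92a-3p left out were 0.87, 0.84 and 0.72. All these rows were picked as the highest of many correlations over 12 libraries, and the values are given as a description.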

How the data were processed

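The authors deposited 1 table of CPM for 386 mature miRNA rows in 12 liver libraries. Liver RNA came from miRNeasy columns and went into TruSeq small RNA libraries, per the labels' protocols. Per the submitters' processing notes, Bowtie 1.2.3 was among the tools. Not given in the sources used here are the genome build, the miRNA reference, any filter on rows and how reads matching several miRNAs were counted. In each column 100% of values were whole multiples of 1 step within 0.001 reads, which, taken as 1 read, gives depths of 5.45 to 22.2 M reads.

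Groups came from the diet labels, and replicate numbers, given in accession order, pair nothing. limma 3.58.1 (R 4.3.3) with a mean-variance trend was fitted to log2(CPM + 1) of all 386 rows, 1 mean per group, with 8 two-sided contrasts and Benjamini-Hochberg adjustment within each over all rows. A difference passed at an adjusted p under 0.05. Log2 changes on this scale understate those of rows at low CPM. The fit was tested on simulated data with independent rows and no shift of a whole library. That checks the code and not the results here. The other values were made in Python 3.11.15 with numpy 2.4.6, pandas 2.3.3 and, for figures, matplotlib 3.10.9, and cluster sums, shares and correlations have no test. Alternatives were 2 pseudocounts, 2 scalings, a stricter filter, quality weights, depth as a covariate, limma-voom, the compared groups alone, and each library left out.

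Named were all 9 members, their passenger arms and seed relatives with a row, and the 3 rows most alike per cluster. Members, lists and tests were chosen with earlier results of these data known. The rows most alike to the miR-17-92 sum without miR-92a-3p, and the marker list values given were chosen after their values were seen.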

Additional observations from a re-analysis of the deposited data

How the results depend on the processing

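No member passed an adjusted p of 0.05 in any of 1477 fits over 21 alternatives. The smallest was 0.0645, for miR-17-5p in CO against CC with depth as a covariate. Own-diet log2 changes near 0 turned sign: that of miR-93-5p was 0.00127 with median-of-ratios factors, 0.0335 with TMM factors, 0.00669 with quality weights and 0.000313 with depth as a covariate. With single libraries left out it lay between -0.0776 and 0.0428, and that of miR-25-3p between -0.0165 and 0.0379. For maternal diet, depth as a covariate gave -0.00133 for miR-17-5p and -0.25 for miR-18a-5p, while median-of-ratios and TMM factors gave -0.0277 and -0.0360 for miR-92a-3p and -0.0209 and -0.0291 for miR-25-3p. The own-diet difference of the miR-106b-25 sum, 21.9 CPM, became 102 CPM with TMM factors and lay between -41.6 and 72.4 CPM with single libraries left out, lowest without CO replicate 1 and highest without CO replicate 3. That of the miR-17-92 sum, -958 CPM, was -675 CPM with median-of-ratios factors and -302 CPM with TMM, and its maternal-diet difference of 420 CPM was -377 and -472 CPM under the same scalings. The causes were not tested.

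Of all rows, own diet called 3, but 8 with median-of-ratios factors, 7 with TMM factors, 12 with quality weights and 5 without OC replicate 2. CO against CC called 3, between 1 and 10 over the alternatives, OO against OC 2, between 0 and 4, OO against CC 1, between 1 and 4, OO against CO 0, or 2 without CO replicate 2, and maternal diet 0, or 1 with quality weights or depth as a covariate. The interaction called 0, or 1 with depth as a covariate. The filter at 10 CPM left out miR-18a-5p. The averages and the interaction need all 4 groups and could not be fitted on the compared groups alone. The planned count model on reads recovered from the steps was not run, because the low values did not establish the step as 1 read. The limma-voom alternative was run on the deposited CPM with all libraries taken as equally deep. Its weights therefore leave out the differences in depth, and it does not stand in for a count model. No paired analysis was possible because the labels give no replicate numbers that the groups share. Depth limits miR-18a-5p most, at 12 to 238 reads per library.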
